A study of Mus musculus with 20 samples.

Results

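The genes described here are 9 that build the GABA system of the cortex and mark its inhibitory neurons: Gad1, Gad2, Abat, Slc32a1, Sst, Npy, Pvalb, Vip and Lhx6. They were taken by name, as every probe whose only gene symbol in the platform annotation is one of them, which gave 10 of the 22575 probes on the array and 9 of the 16504 genes with such a probe. Gad2 has 2 probes and each of the other genes has 1. The material was cortex of mice exposed to cocaine before birth, set against cortex of saline-exposed mice on the same array. The 20 arrays, each carrying a cocaine and a saline sample, form 4 groups of 5: adult occipital, adult frontal, fetal occipital and fetal frontal cortex. In all groups the dams were Swiss Webster mice, injected under the skin with 20 mg/kg cocaine or with saline 2 times a day between embryonic days 8 and 18, and the saline dams were pair-fed to the cocaine dams. Fetuses were taken on embryonic day 18, 1 h after an injection, and adults were offspring killed on postnatal day 30. The frontal piece lay in front of the striatum and the occipital piece behind the level of the hippocampus, and the labels describe both as cortex with the transient zones beneath it. Tissue of 2 fetuses was pooled per channel, the number of adult animals per channel is not given in the labels, and 5 µg of RNA went into each channel. Each slide of a fetal region drew on litters of its own; for the adult slides the litters are not given, and it is not stated if 1 animal gave both regions.

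GABA, the main inhibitory transmitter of the cortex, is made from glutamate by 2 glutamate decarboxylases, GAD67 (Gad1) and GAD65 (Gad2). It is loaded into vesicles by the transporter VGAT (Slc32a1) and broken down by GABA transaminase (Abat). Cortical inhibitory neurons arise below the cortex, in the ganglionic eminences, and migrate into it before birth. Those from the medial eminence depend on the transcription factor Lhx6 and later make either parvalbumin (Pvalb) or somatostatin (Sst), often with neuropeptide Y (Npy). Neurons with vasoactive intestinal peptide (Vip) come from the caudal eminence, and parvalbumin appears in mouse cortex only after birth.

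All values below are log2 ratios of cocaine over saline, set so that the median probe of each array is 0. They are ratios and not levels, so one gene's amount cannot be set against another's, and the presence of neuronal or glial transcripts could not be checked. The tissue was whole cortex, in which fewer inhibitory neurons and less RNA per neuron cannot be told apart. Channel 1 is the cocaine sample and channel 2 the saline sample in the labels of each array. The direction cocaine over saline is therefore likely but is not stated, and with no dye swap a dye difference at a probe cannot be told apart from exposure. A mean is given ± its standard error over 5 arrays from a limma fit of all 20 arrays, and a gene is said to have risen or fallen where the Benjamini-Hochberg adjusted p over 22567 probes was under 0.05. These p-values measure the spread between arrays. That spread is estimated for each probe over all 4 groups together. The standard error and p printed with a group therefore do not measure the spread within that group alone. The array of fetal frontal replicate 1 lists both dyes for channel 1, and fetal occipital replicates 1 and 1b share a title number. Without the first of these arrays all 4 member calls in fetal frontal cortex held, and with its sign turned 0 did. Without replicates 1 and 1b all 4 member calls in fetal occipital cortex held.

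A property of the arrays touches every value. Dim spots were taken to give ratios of small whole numbers, and from this each probe was given a brightness score. The ratio rose with this score on 20 of 20 arrays, with Spearman coefficients from 0.024 to 0.740 across probes. The median of the dimmest 10% of probes was -1.001 in adult occipital, -1.33 in adult frontal, -0.45 in fetal occipital and -0.83 in fetal frontal cortex. Among the brightest 10% it was 1.17, 1.47, 0.61 and 1.23 in these groups. The limma test called 48.2% of all probes in adult occipital, 56.1% in adult frontal, 24.7% in fetal occipital and 37% in fetal frontal cortex. Among 733 olfactory receptor genes, which are used mainly in the nose, 92 rose and 264 fell in adult occipital, 93 and 367 in adult frontal, 58 and 148 in fetal occipital, and 72 and 205 in fetal frontal cortex. Among 116 vomeronasal receptor genes 12 rose and 53 fell in adult occipital, 13 and 68 in adult frontal, 8 and 23 in fetal occipital, and 8 and 44 in fetal frontal cortex. Each member below is therefore given with its brightness percentile, where 0 is the dimmest, and with its value after the brightness trend, or the brightness and position trends together, were removed from every array by local regression.

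The promoters of 4 members are shown. Sst and Gad1 had ratios that differed between adult and fetal occipital cortex. The ratio of Npy rose in all 4 groups with centring alone, and Vip was taken as a further peptide gene. Whether the promoter letters have a part in the ratios was not tested. The 250 bases before a transcript start of each gene were read from RefSeq on build GRCm38.p6, 5′ to 3′, and 8 of the 9 members had an entry. Capitals mark TGACGTCA, the cyclic AMP response element, or its part TGACG, and TATAAA, the TATA box, on either strand. TGACG lies inside TGACGTCA. TAATTA, a core bound by homeodomain proteins such as Lhx6, was also searched and was not in any window of a member. Sst is at chr16:23890845-23891094 on the minus strand, Vip at chr10:5638968-5639217, Gad1 at chr2:70561879-70562128 and Npy at chr6:49822460-49822709, the last 3 on the plus strand. The Npy window ends just before the annotated gene, while those of Gad1 and Sst lie inside the annotated gene span and that of Vip crosses its start.
Sst: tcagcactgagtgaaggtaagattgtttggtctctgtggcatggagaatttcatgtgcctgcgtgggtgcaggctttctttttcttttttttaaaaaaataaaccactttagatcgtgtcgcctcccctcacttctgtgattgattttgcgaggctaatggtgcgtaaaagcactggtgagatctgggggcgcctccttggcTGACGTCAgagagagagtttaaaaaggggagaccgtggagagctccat
Vip: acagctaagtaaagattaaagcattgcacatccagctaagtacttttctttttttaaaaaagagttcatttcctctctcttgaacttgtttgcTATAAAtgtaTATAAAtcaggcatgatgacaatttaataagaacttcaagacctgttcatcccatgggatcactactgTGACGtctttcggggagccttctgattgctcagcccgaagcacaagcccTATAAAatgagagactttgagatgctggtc
Gad1: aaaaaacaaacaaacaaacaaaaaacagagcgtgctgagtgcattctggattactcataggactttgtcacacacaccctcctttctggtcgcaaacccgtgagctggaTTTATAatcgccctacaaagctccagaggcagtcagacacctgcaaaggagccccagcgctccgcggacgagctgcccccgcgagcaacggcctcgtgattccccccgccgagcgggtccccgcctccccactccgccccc
Npy: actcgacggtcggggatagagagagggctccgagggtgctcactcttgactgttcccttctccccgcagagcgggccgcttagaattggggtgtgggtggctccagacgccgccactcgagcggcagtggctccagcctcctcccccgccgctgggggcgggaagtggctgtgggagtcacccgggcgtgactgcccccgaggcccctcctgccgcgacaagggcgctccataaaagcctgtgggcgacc

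The Sst window held the whole cyclic AMP response element, starting at base -48 from that start, and the Vip window held TGACG at -79. All windows of this length in the table numbered 32851, and 1.55% of them held TGACGTCA, 17.8% TGACG, 12.4% TATAAA and 4.84% TAATTA. Vip held TATAAA at -157, -147 and -30, and Gad1 held it on the other strand at -141. In Gad2 the letters TGACG were found on the other strand at -33. None of these letters was in the windows of Npy, Slc32a1, Pvalb or Lhx6, which says only that they are absent from these stretches. Abat had no entry.

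Over the 10 probes the limma test called 5 in adult occipital cortex, 4 higher and 1 lower, against 48.2% of all probes (24.1% higher and 24.1% lower). In adult frontal cortex it also called 4 higher and 1 lower, against 56.1% (26.8% higher and 29.4% lower). In fetal tissue it called 2 probes higher and 2 lower in fetal occipital cortex, against 24.7% of all probes (10.5% and 14.2%), and 2 higher and 2 lower in fetal frontal cortex, against 37% (18.7% and 18.4%). All 5 arrays of a group were above 0 for 26.2% of all probes in adult occipital, 27.3% in adult frontal, 14.8% in fetal occipital and 19.1% in fetal frontal cortex, and all 5 were below 0 for 26.7%, 27.1%, 16.7% and 19.7%. The share of members called was close to that of all probes in each adult group and in fetal frontal cortex. In fetal occipital cortex it was 4 of 10 against 24.7%. With 10 probes this is a small count, and the difference in share was not tested. Their median was 0.44 in adult occipital, 0.61 in adult frontal, -0.21 in fetal occipital and -0.28 in fetal frontal cortex, where the median of all probes lay between -0.04 and 0.01.

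**Figure D1:**
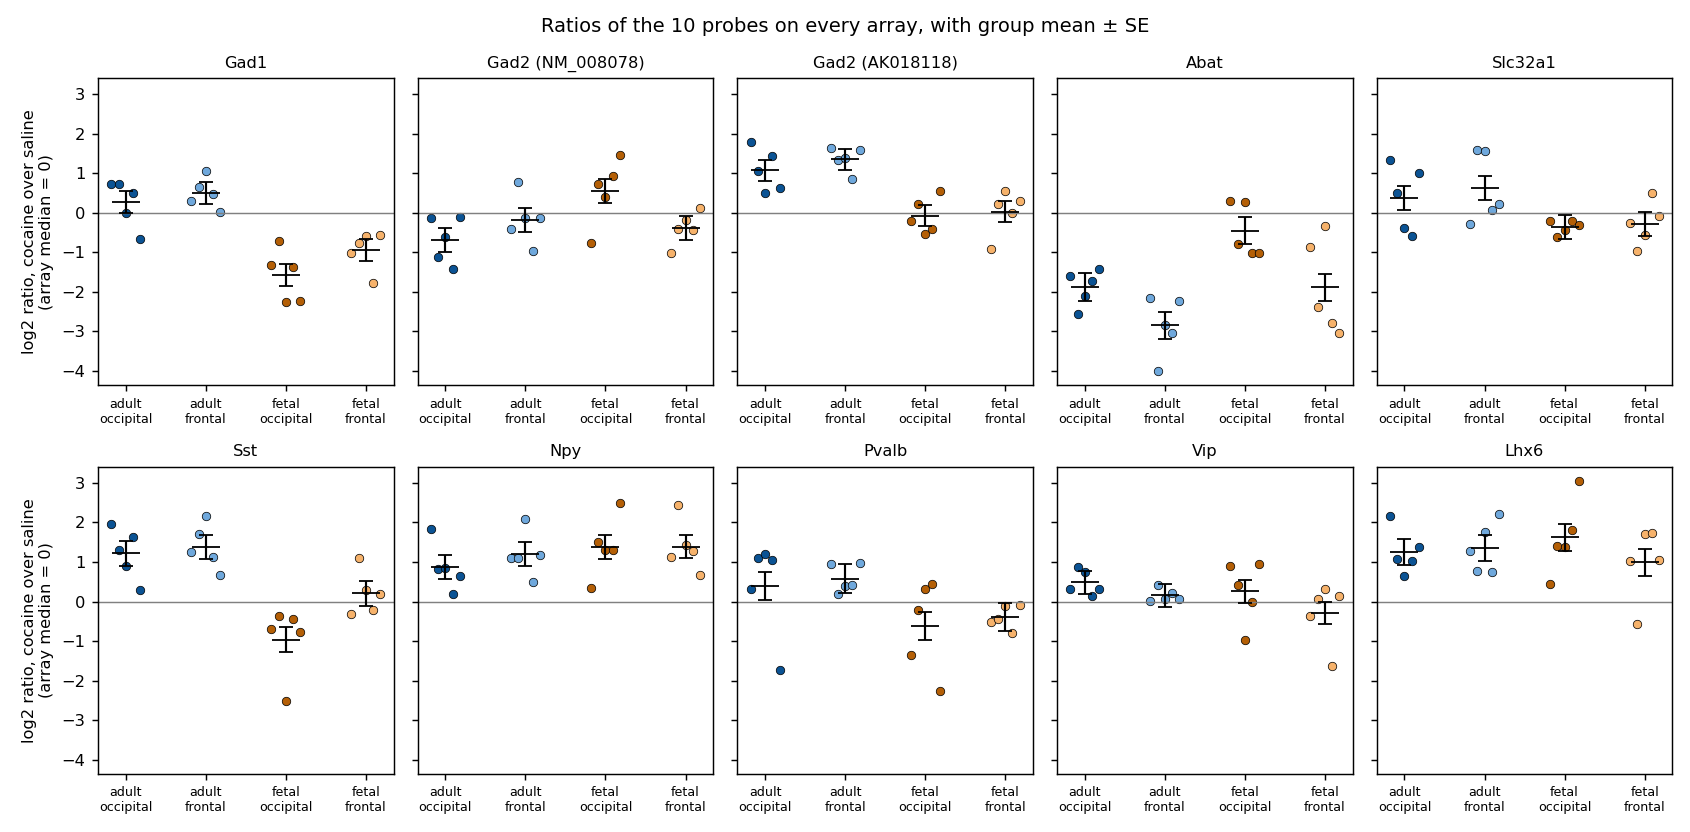
Each point is the log2 ratio of cocaine over saline of 1 probe on 1 array, by group from left to right (adult occipital, adult frontal, fetal occipital, fetal frontal), and the black mark is the group mean ± SE from limma (n = 5). Gad1 and Sst lie lower in fetal occipital than in adult occipital cortex with no overlap, while Npy lies above 0 on all 20 arrays.

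Gad1, which encodes the decarboxylase that makes most cortical GABA, was lower in cocaine-exposed fetal cortex of both regions and did not pass in the adult. Its ratios were 0.74, 0.73, 0.00, 0.50 and -0.65 on the adult occipital arrays and 0.31, 0.65, 1.05, 0.49 and 0.02 on the adult frontal arrays. Fetal occipital arrays gave -1.32, -0.71, -2.25, -1.37 and -2.22, and fetal frontal arrays -1.02, -0.78, -0.59, -1.77 and -0.55. All 10 fetal values were below 0, and 9 of the 10 adult values were above it. In fetal occipital cortex Gad1 fell by 1.58 ± 0.28, a 2.98-fold lower ratio (adjusted p = 3.66e-04). It fell by 0.94 ± 0.28 in fetal frontal cortex (1.92-fold, adjusted p = 0.00988), a call lost without fetal frontal replicate 4, where the mean was -0.73 (adjusted p = 0.0682). The adult means were 0.26 ± 0.28 in occipital and 0.50 ± 0.28 in frontal cortex (adjusted p = 0.449 and 0.125). The probe sits in the middle of the brightness range, at percentile 49.7, where the median of all probes is near 0. Gad1 was at -1.42 in fetal occipital cortex with the brightness trend removed (adjusted p = 0.00108) and with both trends removed at -0.99 (adjusted p = 0.0148). In fetal frontal cortex the 2 values were -0.79 and -0.68, and neither passed (adjusted p = 0.0634 and 0.0639). With both trends removed the adult frontal mean of 0.83 passed (adjusted p = 0.0131).

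Gad2, the decarboxylase held mainly at synaptic endings, was read by 2 probes that disagreed. The first matches the RefSeq transcript NM_008078 and sits at brightness percentile 54.6. The second was made from the clone AK018118, which is not a RefSeq transcript, and sits at percentile 94.9. On adult occipital arrays the RefSeq probe read -0.12, -1.12, -0.62, -1.42 and -0.11 and the clone probe 1.79, 1.06, 0.49, 1.44 and 0.63, with no overlap between the probes. Adult frontal arrays gave -0.42, 0.77, -0.12, -0.96 and -0.13 for the RefSeq probe and 1.64, 1.33, 1.38, 0.86 and 1.59 for the clone probe. The clone probe rose by 1.08 ± 0.27 in adult occipital and by 1.36 ± 0.27 in adult frontal cortex (adjusted p = 0.00209 and 1.20e-04). At the RefSeq probe the means were -0.68 ± 0.30 and -0.17 ± 0.30 (adjusted p = 0.0595 and 0.643). None of its 4 group means passed with the brightness trend removed, at -0.70, -0.15, 0.66 and -0.34. Its adult occipital mean passed with the position trend alone removed, at -0.57 (adjusted p = 0.0457), and with array weights, at -0.65 (adjusted p = 0.0249). It also passed in a fit of that group's own arrays (adjusted p = 0.0286) and without adult occipital replicate 5, at -0.82 (adjusted p = 0.0465). With both trends removed it was -0.50 and did not pass (adjusted p = 0.141). In fetal occipital cortex the RefSeq probe read -0.76, 0.74, 0.39, 0.95 and 1.47 and the clone probe -0.21, 0.22, -0.53, -0.40 and 0.55. Fetal frontal arrays gave -1.03, -0.42, -0.17, -0.45 and 0.12 for the RefSeq probe and -0.92, 0.23, 0.56, -0.01 and 0.29 for the clone probe. Neither probe passed in fetal tissue with all arrays and centring alone. The RefSeq and clone probes had means of 0.56 ± 0.30 and -0.07 ± 0.27 in fetal occipital cortex. In fetal frontal cortex they were -0.39 ± 0.30 and 0.03 ± 0.27. Without fetal occipital replicate 1 the fetal occipital mean of the RefSeq probe was 0.89 and passed (adjusted p = 0.0339). When the brightness trend was removed the adult means of the clone probe were -0.02 and 0.00, neither of them past the test, and its fetal frontal mean was -1.09 (adjusted p = 0.0131). With centring alone the means of the 2 probes had opposite signs in each of the 4 groups. With the brightness trend removed both were below 0 in adult occipital and in fetal frontal cortex. They remained of opposite sign in adult frontal and fetal occipital cortex. When both probes were averaged before the fit, the adult occipital value was 0.20 (adjusted p = 0.535) and the adult frontal value 0.59 (adjusted p = 0.0499).

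Slc32a1, the vesicular GABA transporter, did not pass in any group. Its ratios ran between -0.59 and 1.33 in adult occipital, between -0.29 and 1.59 in adult frontal, between -0.61 and -0.20 in fetal occipital and between -0.96 and 0.49 in fetal frontal cortex. All 5 fetal occipital values were below 0 and close together. The means were 0.37 ± 0.31, 0.63 ± 0.31, -0.35 ± 0.31 and -0.28 ± 0.31 in those groups, with adjusted p-values of 0.322, 0.0800, 0.412 and 0.500. The probe sits at brightness percentile 67.2. With the brightness trend removed the means were 0.06, 0.28, -0.40 and -0.499, and none passed, while with the position trend alone removed the adult frontal mean was 0.98 and passed (adjusted p = 0.00422). Without adult frontal replicate 1 that mean was 0.86 and passed (adjusted p = 0.0328).

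Abat, which breaks GABA down, had the lowest mean of the members in the adult groups and in fetal frontal cortex. On adult occipital arrays it read -1.59, -2.55, -2.12, -1.72 and -1.41, and on adult frontal arrays -2.14, -4.003, -2.84, -3.03 and -2.23. Fetal occipital arrays gave 0.29, -0.79, 0.28, -1.03 and -1.01, and fetal frontal arrays -0.85, -2.38, -0.32, -2.80 and -3.05. It fell in 3 groups, with means of -1.88 ± 0.34 in adult occipital (3.67-fold lower), -2.85 ± 0.34 in adult frontal (7.21-fold lower) and -1.88 ± 0.34 in fetal frontal cortex (3.68-fold lower), with adjusted p-values of 2.99e-04, 1.33e-06 and 3.21e-04. In fetal occipital cortex the mean was -0.45 ± 0.34 (adjusted p = 0.341). The spot was among the dimmest on the array, at brightness percentile 0.474. On 17 of 20 arrays its ratio could be written with whole numbers up to 20, where 9.79% of ratios drawn at random could. The probe was made from the clone AK083062, which is not a RefSeq transcript, and no second probe reads the gene. Once the brightness trend was removed the means were -0.71 in adult occipital (adjusted p = 0.0734), -1.27 in adult frontal (adjusted p = 0.00183) and -0.92 in fetal frontal cortex (adjusted p = 0.0337), and with both trends removed the adult occipital mean was -1.04 (adjusted p = 0.00910). The part of spot dimness in these falls was not tested.

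Sst, the peptide of a large class of dendrite-targeting inhibitory neurons, was higher in the adult groups and lower in fetal occipital cortex. Its ratios were 1.97, 1.29, 0.89, 1.63 and 0.31 in adult occipital and 1.26, 1.71, 2.15, 1.14 and 0.67 in adult frontal cortex. Fetal occipital arrays gave -0.68, -0.37, -2.53, -0.45 and -0.78, and fetal frontal arrays -0.32, 1.09, 0.29, -0.21 and 0.18. All 10 adult values were above 0 and all 5 fetal occipital values below it, while fetal frontal values fell on both sides. Sst rose by 1.22 ± 0.31 in adult occipital (2.32-fold) and by 1.39 ± 0.31 in adult frontal cortex (2.61-fold), with adjusted p-values of 0.00251 and 4.10e-04. It fell by 0.96 ± 0.31 in fetal occipital cortex (1.95-fold lower, adjusted p = 0.0229), and the fetal frontal mean was 0.21 ± 0.31 (adjusted p = 0.622). The fall rested on fetal occipital replicate 3, since without it the mean was -0.57 (adjusted p = 0.190). The probe is among the brightest, at percentile 97.2. Removal of the brightness trend left adult means of 0.02 and -0.09, far from the threshold, and those of fetal occipital and fetal frontal cortex were -1.58 and -1.05 (adjusted p = 9.30e-04 and 0.0301).

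Npy, a peptide of somatostatin and neurogliaform cells, was above 0 on all 20 arrays. It read 1.85, 0.83, 0.84, 0.20 and 0.64 in adult occipital and 1.10, 1.10, 2.09, 0.50 and 1.18 in adult frontal cortex. Fetal occipital arrays gave 0.33, 1.499, 1.32, 1.30 and 2.49, and fetal frontal arrays 1.13, 2.45, 1.43, 1.27 and 0.68. The groups overlapped throughout. Npy rose by 0.87 ± 0.30 in adult occipital, 1.195 ± 0.30 in adult frontal, 1.39 ± 0.30 in fetal occipital and 1.39 ± 0.30 in fetal frontal cortex, with adjusted p-values of 0.0193, 0.00140, 0.00205 and 9.86e-04. Without adult occipital replicate 1 the first of these was 0.62 and did not pass (adjusted p = 0.125). Npy is also a bright spot, at percentile 93.4. Its means after removal of the brightness trend were -0.18, -0.09, 0.89 and 0.34 in the same groups, of which the fetal occipital mean alone passed (adjusted p = 0.00962), and with both trends removed that mean was 0.40 (adjusted p = 0.231).

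Lhx6, the transcription factor that guides cells of the medial eminence, was the other member that rose in all 4 groups. A rise in all 4 was seen for 4.84% of all probes, and a fall in all 4 for 5.28%. Its ratios were 2.18, 1.08, 0.64, 1.01 and 1.38 in adult occipital and 1.28, 0.77, 1.77, 0.75 and 2.21 in adult frontal cortex. Fetal occipital arrays gave 0.45, 1.40, 1.39, 1.82 and 3.05, and fetal frontal arrays 1.02, -0.57, 1.72, 1.74 and 1.05. Fetal frontal replicate 2 lay below 0. The means were 1.26 ± 0.33 in adult occipital, 1.36 ± 0.33 in adult frontal, 1.62 ± 0.33 in fetal occipital and 0.99 ± 0.33 in fetal frontal cortex, with adjusted p-values of 0.00350, 0.00109, 0.00134 and 0.0208. Leaving out fetal frontal replicate 3, 4 or 5 ended the fetal frontal call, at 0.81, 0.81 and 0.98 (adjusted p = 0.0880, 0.102 and 0.0506). In fetal occipital cortex Lhx6 ranked 22508 from the bottom of 22567 probes. The spot sits at percentile 73.3, and with the brightness trend removed the means were 0.77, 0.80, 1.496 and 0.62, of which the fetal occipital mean passed (adjusted p = 0.00399). It also passed with both trends removed, at 0.91 (adjusted p = 0.0433).

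Pvalb, the calcium buffer of fast-spiking basket cells, did not pass in any group. Its ratios ran between -1.73 and 1.204 in adult occipital, 0.18 and 0.97 in adult frontal, -2.26 and 0.46 in fetal occipital and -0.80 and -0.09 in fetal frontal cortex. All 5 adult frontal values were above 0 and all 5 fetal frontal values below it. The means were 0.39 ± 0.36, 0.58 ± 0.36, -0.61 ± 0.36 and -0.39 ± 0.36 in the 4 groups, with adjusted p-values between 0.166 and 0.401. The low value of adult occipital replicate 5 decided its group, since without it the mean was 0.92 (adjusted p = 0.0308). The spot sits at brightness percentile 47.8, and none of the means passed after removal of the brightness trend, at 0.54, 0.81, -0.43 and -0.21. After removal of the position trend alone the adult frontal mean was 0.85 and passed (adjusted p = 0.00918).

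Vip, a peptide of cells that mainly inhibit other inhibitory neurons, did not pass either. It ranged between 0.15 and 0.88 in adult occipital, 0.01 and 0.41 in adult frontal, -0.96 and 0.95 in fetal occipital and -1.63 and 0.32 in fetal frontal cortex. All 10 adult values were above 0, the adult frontal ones by little. The means were 0.48 ± 0.29, 0.15 ± 0.29, 0.26 ± 0.29 and -0.29 ± 0.29, with adjusted p-values between 0.165 and 0.671. The spot is dim, at percentile 33.9, and on 9 of 20 arrays its ratio could be written with whole numbers up to 20. The adult occipital mean was 0.91 once the brightness trend was removed and passed (adjusted p = 0.0283), but was 0.68 and did not pass with both trends removed (adjusted p = 0.0722). The fetal occipital mean passed at 0.78 with the position trend removed and at 0.93 with both (adjusted p = 0.0415 and 0.0293), but not with the brightness trend removed, at 0.55 (adjusted p = 0.151).

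**Figure D2:**
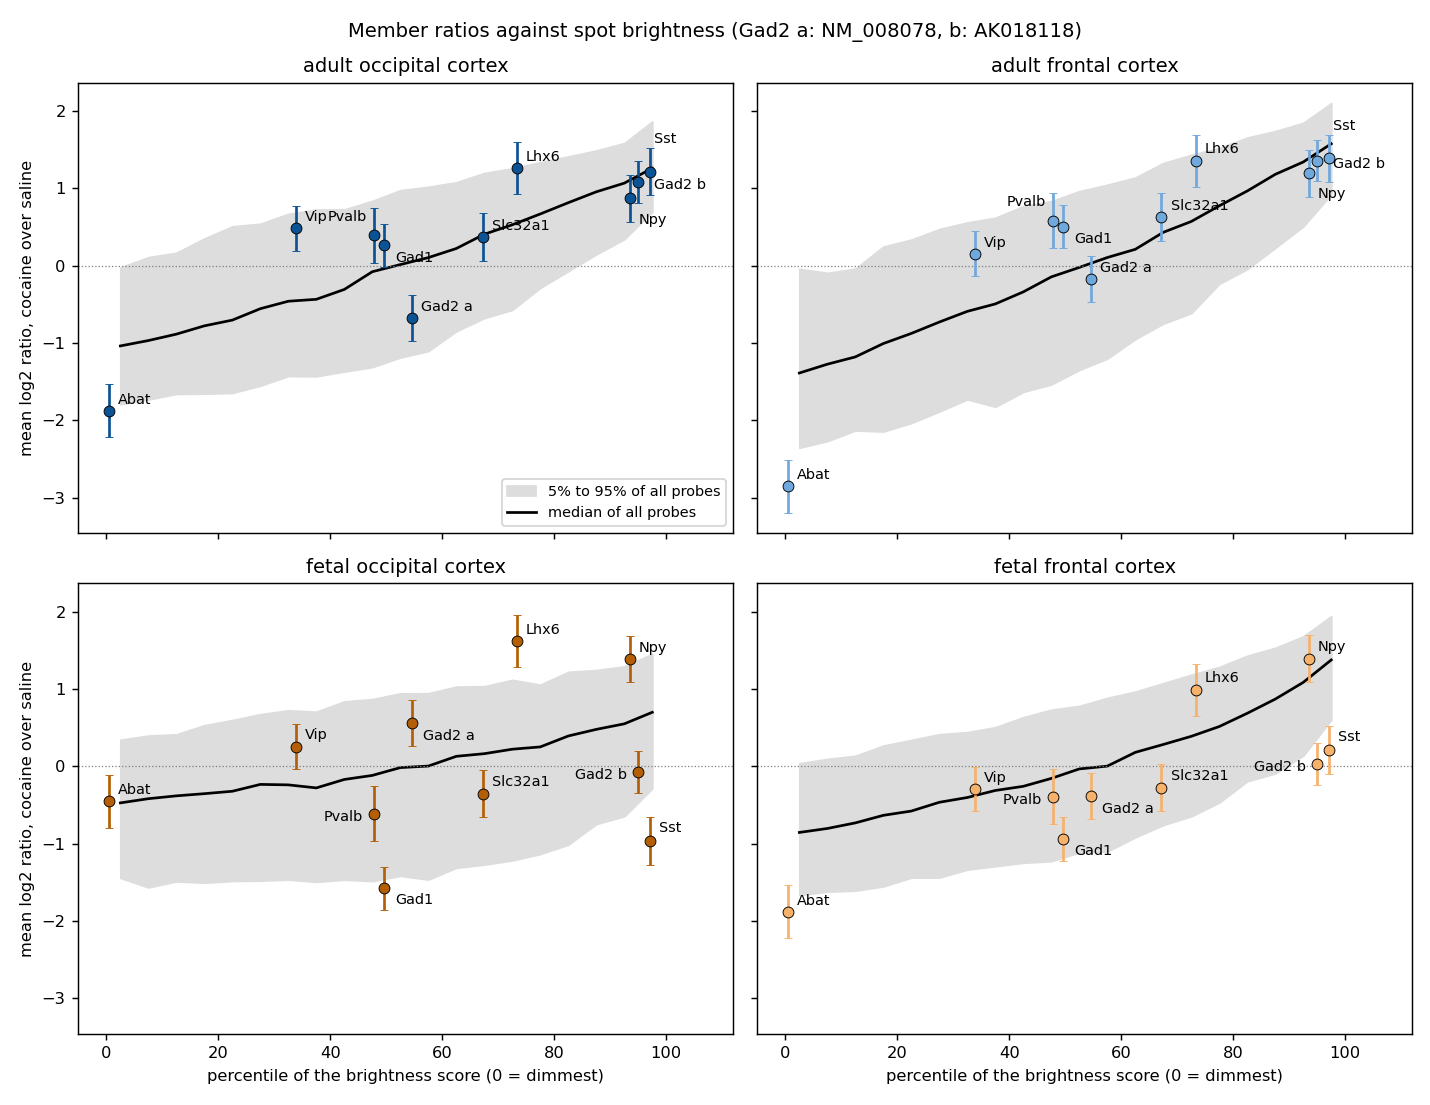
Mean log2 ratio ± SE (n = 5 arrays) of the 10 probes against the percentile of the brightness score, by group, over the median (line) and the 5% to 95% range (grey) of all probes. In the adult panels Sst, Npy and the clone probe of Gad2 lie near the median of equally bright probes, while in fetal occipital cortex Gad1 and Sst lie below the grey range and Npy and Lhx6 above it.

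The next comparison set the ratios of the members in adult tissue against those in fetal tissue. Fetuses were taken 1 h after an injection and adults on postnatal day 30, after injections that ended by embryonic day 18. Age therefore cannot be told apart from the time since the last injection. Fetal channels also pooled 2 fetuses, while the number of adult animals per channel is not given. Adult minus fetal occipital differences passed for 2 of the 10 probes, Sst and Gad1, both higher in the adult, against 3.6% of all probes (2.51% higher and 1.09% lower). Sst averaged 1.22 ± 0.65 in adult occipital and -0.96 ± 0.89 in fetal occipital cortex (SD, n = 5 each), a difference of 2.18 ± 0.44 with a 95% interval of 1.29 to 3.07 (adjusted p = 0.0132). Gad1 averaged 0.26 ± 0.59 and -1.58 ± 0.66 in the same groups, a difference of 1.84 ± 0.40 with an interval of 1.03 to 2.64 (adjusted p = 0.0190). The lowest adult occipital array lay above the highest fetal occipital array for both genes, and for Abat every adult occipital array lay below every fetal one. Such separation was seen in 9.66% of all probes. Both calls were lost without adult occipital replicate 3, where the differences were 2.26 and 1.90 (adjusted p = 0.0669 each) and the test called 1 of all probes. These differences also passed with the brightness trend removed, at 1.597 for Sst and 1.78 for Gad1 (adjusted p = 0.0399 and 0.0249), and with both trends removed, at 1.53 and 1.64 (adjusted p = 0.0376 and 0.0248). The difference of Abat was -1.42 ± 0.48, of the RefSeq probe of Gad2 -1.24 ± 0.42 and of its clone probe 1.16 ± 0.38 (adjusted p = 0.0751, 0.0761 and 0.0671).

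In frontal cortex the limma test called 0 of the 10 probes for adult minus fetal, where it called 0.0266% of all probes (0.00443% higher and 0.0222% lower), and 4 of the 10 had an unadjusted p under 0.05, as had 3171 of all 22567 probes. The groups did not overlap for Gad1, Pvalb and the clone probe of Gad2, adult values being the higher, against 2.55% of all probes. The difference of Gad1 was 1.44 ± 0.40 (95% interval 0.64 to 2.25, adjusted p = 0.133), of the same sign as in occipital cortex. For the clone probe of Gad2 it was 1.33 ± 0.38 (0.56 to 2.10, adjusted p = 0.145), for Sst 1.18 ± 0.44 (0.29 to 2.07, adjusted p = 0.238) and for Slc32a1 0.91 ± 0.43 (0.02 to 1.79, adjusted p = 0.346), which are the 4. For Pvalb, with an unadjusted p of 0.0624, it was 0.97 ± 0.50 (-0.05 to 2.002, adjusted p = 0.380). Npy and Lhx6 did not pass, with differences of -0.52 ± 0.43 and -0.36 ± 0.47 in occipital and of -0.20 ± 0.43 and 0.37 ± 0.47 in frontal cortex.

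**Figure D3:**
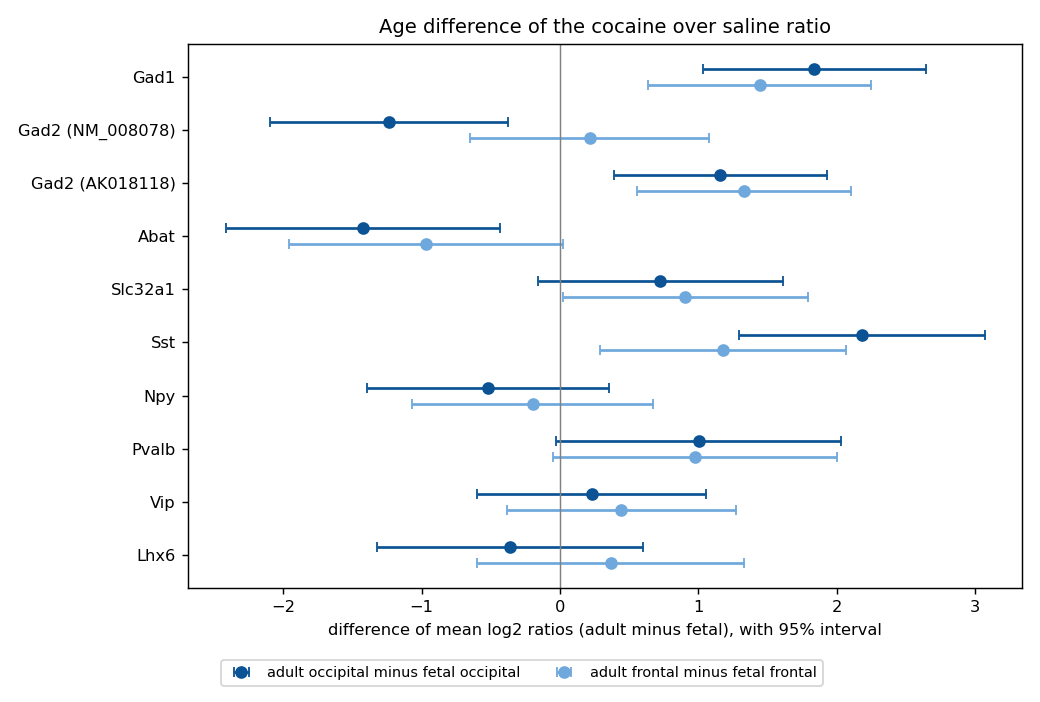
Adult minus fetal difference of the mean log2 ratio for each of the 10 probes in occipital (dark) and frontal (light) cortex, with 95% intervals from limma. The intervals of Gad1, Sst and the clone probe of Gad2 lie above 0 in both regions, and of these the occipital differences of Gad1 and Sst passed the adjusted test.

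The regions were compared within each age. For adult occipital minus adult frontal the limma test called 0 of the 10 probes and 0% of all probes, and 0 of the 10 had an unadjusted p under 0.05. The largest member difference was that of Abat, 0.97 ± 0.48 (adjusted p = 0.999). For fetal occipital minus fetal frontal it also called 0 of the 10, against 0.0222% of all probes, and 3 had an unadjusted p under 0.05, as had 3504 of all 22567 probes. These were Abat (1.43 ± 0.48, adjusted p = 0.164), Sst (-1.17 ± 0.44, adjusted p = 0.199) and the RefSeq probe of Gad2 (0.94 ± 0.42, adjusted p = 0.279). Sst was the one member whose fetal groups did not overlap, as was the case for 2.96% of all probes.

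**Figure D4:**
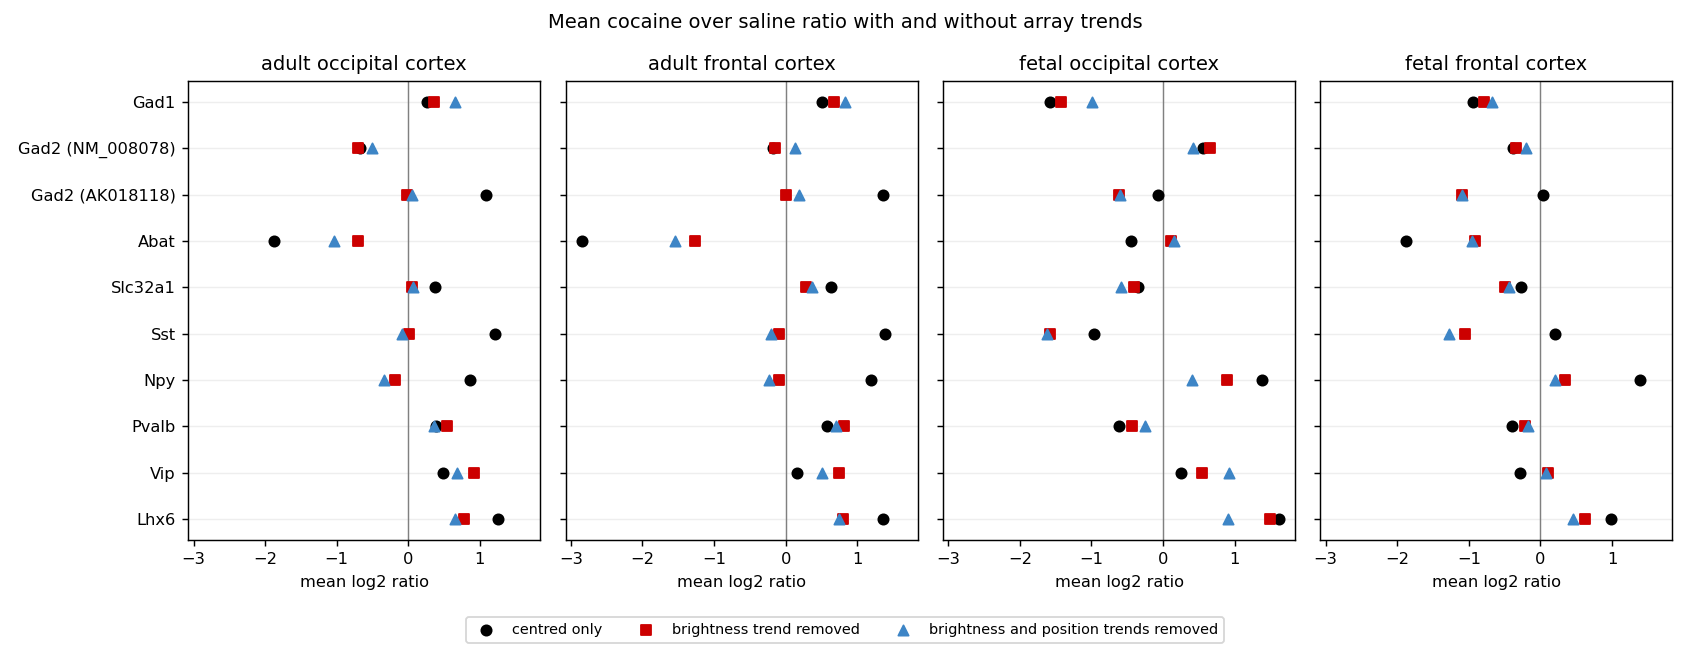
Mean log2 ratio of each probe in each group (n = 5 arrays) after centring alone (circles), with the brightness trend removed (squares) and with the brightness and position trends removed (triangles). The adult values of Sst, Npy and the clone probe of Gad2 move to between -0.34 and 0.19, and those of Npy lie below 0 after either removal. The fetal occipital values of Gad1 and Sst lie below 0 under each of the 3.

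By the likeness of their ratios over the 20 arrays, Gad1 and Sst were each other's nearest gene (Pearson r = 0.917), followed by Cbx6 (0.917) and Hpcal4 (0.914) for Gad1 and by Gja1 (0.903) and Cox6c (0.894) for Sst. Nearest to Npy were Sqstm1 (0.892), Ppp1cc (0.880) and Trim44 (0.853), to Slc32a1 Fxyd7 (0.839), Ap2s1 (0.816) and Ankrd40 (0.808), and to Lhx6 Muc13 (0.793), Dbh (0.748) and the olfactory receptor Olfr166 (0.746). The 2 Gad2 probes had no neighbour in common, with Tmem254a (0.877), Dbr1 (0.852) and Cbx5 (0.830) for the RefSeq probe and Prrg2 (0.889), Glul (0.877) and Meg3 (0.848) for the clone probe. Abat was nearest to Mob3b (0.923), B3gnt5 (0.920) and Adam33 (0.918), Pvalb to Phf19 (0.880), Fam221a (0.868) and Nop9 (0.855), and Vip to Hnrnpll (0.835), Bpnt1 (0.762) and Tex10 (0.760). These coefficients describe 20 arrays that fall into 4 groups and share trends with brightness and position.

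Genes around the members were read as lists. The genes named from them are among the 3 with the smallest p in a group. Each count is to be read beside the shares of all probes that rose and fell. These were 24.1% and 24.1% in adult occipital and 26.8% and 29.4% in adult frontal cortex. In fetal occipital cortex they were 10.5% and 14.2%, and in fetal frontal cortex 18.7% and 18.4%. The median brightness percentile of these lists lay between 49.6 and 75.2. With the brightness trend removed fewer probes were called in each group, at the counts given at the end. The calls printed with a value here held when any 1 array was left out, with these exceptions. Those of Slc6a12, Aldh5a1, Gphn and Slc12a5 in fetal cortex and of Kctd8 in fetal frontal cortex did not. Calls of some of the named genes in other groups did not hold either. Of 3 measured GABA transporters of the plasma membrane, which clear GABA from the synapse, none passed in adult occipital, adult frontal or fetal frontal cortex. In fetal occipital cortex 1 rose, Slc6a12 (1.04 ± 0.32, adjusted p = 0.0194), a call lost without replicate 3, 4 or 5, at 0.98, 0.94 and 0.84 (adjusted p = 0.0568, 0.0733 and 0.107). Of 11 genes of GABA and glutamate metabolism 5 rose and 0 fell in adult occipital, 7 and 0 in adult frontal, 2 and 2 in fetal occipital, where 1 more had probes that disagreed, and 3 and 0 in fetal frontal cortex. These counts after removal of the trend were 1 and 0, 0 and 0, 1 and 1, and 0 and 2. The 3 genes that had risen in fetal frontal cortex are not the 2 that then fell. Aldh5a1, which oxidises the product of Abat, rose by 1.11 ± 0.26 in adult occipital and 1.02 ± 0.26 in adult frontal cortex (adjusted p = 0.00167 and 0.00173), at brightness percentile 70.9. The 2 values were 0.69 and 0.54 after removal of the brightness trend, and the adult frontal one did not pass (adjusted p = 0.0471 and 0.0941), nor did either with both trends removed, at 0.48 and 0.43 (adjusted p = 0.117 and 0.137). With centring alone Aldh5a1 also rose by 0.84 ± 0.26 in fetal occipital and 0.66 ± 0.26 in fetal frontal cortex (adjusted p = 0.0212 and 0.0472). Glul, the glutamine synthetase of astrocytes, rose by 1.07 ± 0.24 in adult frontal cortex (adjusted p = 4.75e-04), at percentile 93.8, and was at -0.23 with the brightness trend removed.

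Of 15 GABA-A receptor subunits 6 rose and 1 fell in adult occipital, 5 and 1 in adult frontal, 1 and 2 in fetal occipital and 2 and 1 in fetal frontal cortex. After removal of the brightness trend the counts were 0 and 0, 1 and 1, 0 and 2, and 0 and 0. Gabrb2, a beta subunit, rose by 1.17 ± 0.30, 1.69 ± 0.30 and 1.45 ± 0.30 in adult occipital, adult frontal and fetal frontal cortex (adjusted p = 0.00299, 4.95e-05 and 7.70e-04), and its means were 0.02, 0.28 and 0.26 with the trend removed. Of 6 genes of the GABA-B receptor and its potassium channels 3 rose and 2 fell in both adult groups, 0 rose and 2 fell in fetal occipital cortex, and 1 rose and 2 fell in fetal frontal cortex, against 2 and 0, 2 and 0, 0 and 2, and 0 and 0 with the trend removed. Gabbr1, the subunit that binds GABA, rose by 1.41 ± 0.32 in adult frontal cortex (adjusted p = 5.17e-04), and the value was 1.42 with the brightness trend removed (adjusted p = 0.00222). Kctd8, an auxiliary subunit, fell by 1.92 ± 0.32 in fetal occipital cortex (adjusted p = 2.33e-04), and was at -1.64 with the brightness trend removed (adjusted p = 8.67e-04) and at -0.70 with both (adjusted p = 0.0690). With centring alone Kctd8 also fell in adult occipital and fetal frontal cortex, with means of -1.25 ± 0.32 and -1.13 ± 0.32 (adjusted p = 0.00275 and 0.00728).

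Among 6 genes of the inhibitory synapse and of chloride transport 4 rose in each adult group, 2 in fetal occipital and 1 in fetal frontal cortex, and 0 fell. With the trend removed 1, 1, 2 and 0 rose, and 1 fell in fetal occipital cortex. Gphn, the scaffold of inhibitory synapses, rose by 0.90 ± 0.28 in adult occipital and 1.18 ± 0.28 in adult frontal cortex (adjusted p = 0.0102 and 8.32e-04). It lies at brightness percentile 57.0 and kept values of 0.83 and 1.14 with the brightness trend removed (adjusted p = 0.0388 and 0.00421). With centring alone Gphn also rose by 0.76 ± 0.28 in fetal occipital cortex (adjusted p = 0.0486). Slc12a5, the chloride exporter that makes GABA inhibitory in mature neurons, rose by 1.40 ± 0.32 in adult frontal cortex (adjusted p = 5.48e-04) and was at 0.40 with the trend removed. With centring alone Slc12a5 also rose by 0.999 ± 0.32 in fetal occipital cortex (adjusted p = 0.0234).

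**Figure D5:**
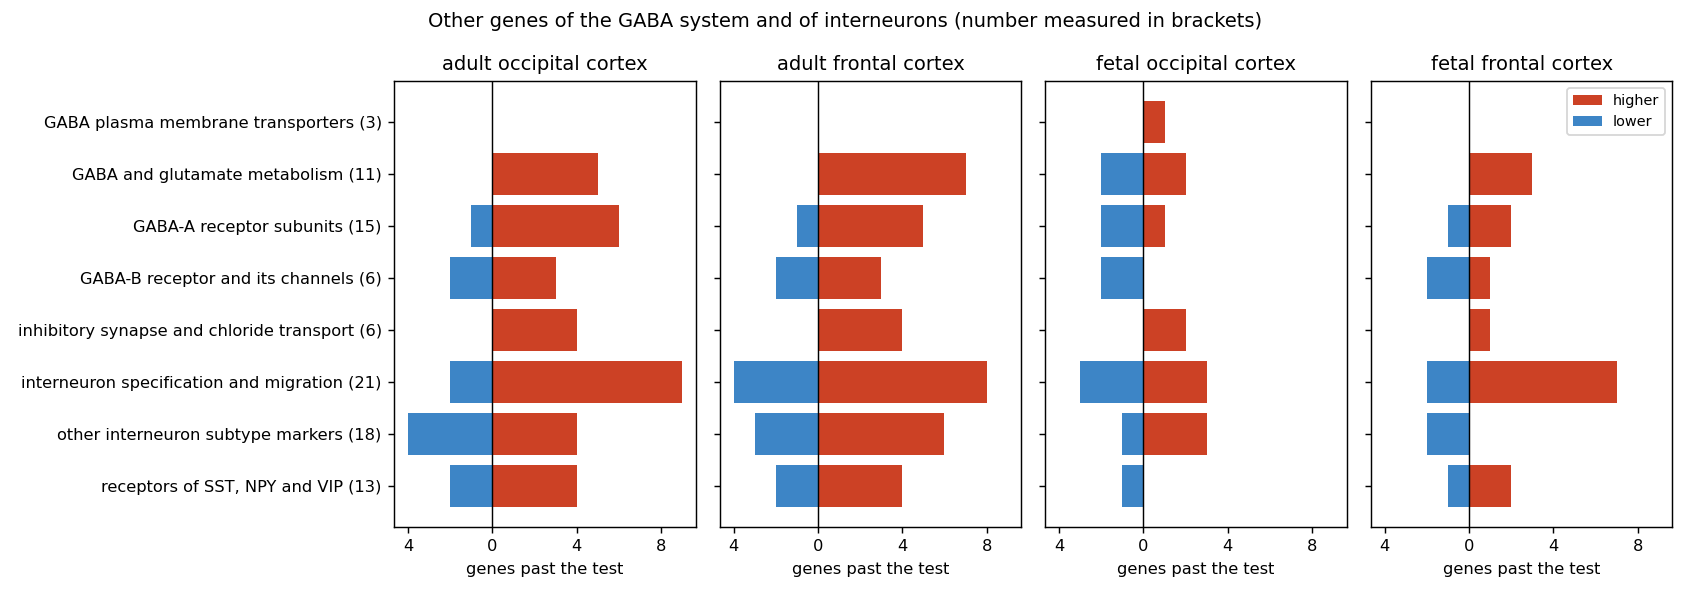
Number of genes of each list that rose (red, to the right) or fell (blue, to the left) in each group by the limma test, with the number measured in brackets. Inhibitory synapse genes passed upward alone in every panel, and genes of GABA and glutamate metabolism in every panel but fetal occipital. The specification list has genes on both sides in every group.

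Of 21 genes that specify inhibitory neurons or steer their migration 9 rose and 2 fell in adult occipital, 8 and 4 in adult frontal, 3 and 3 in fetal occipital and 7 and 2 in fetal frontal cortex. With the brightness trend removed the counts were 1 and 0, 2 and 1, 2 and 3, and 0 and 2. Erbb4, the neuregulin receptor of these neurons, rose by 1.59 ± 0.33, 1.74 ± 0.33 and 1.64 ± 0.33 in adult occipital, adult frontal and fetal frontal cortex (adjusted p = 6.56e-04, 8.09e-05 and 5.31e-04). It is at brightness percentile 98.6, and its means were 0.28, 0.12 and 0.24 with the trend removed. Lhx8, a relative of Lhx6 that directs cholinergic rather than cortical inhibitory fates, fell by 2.58 ± 0.31 in fetal occipital cortex (adjusted p = 1.40e-05). It was at -2.35 with the brightness trend removed and at -1.24 with both removed (adjusted p = 7.28e-05 and 0.0153), which sets it on the other side of 0 from Lhx6. Nr2f2, which marks cells of the caudal eminence, rose by 1.46 ± 0.34 in fetal occipital cortex (adjusted p = 0.00339) and was at 1.18 with the brightness trend removed (adjusted p = 0.0150) and at 0.54 with both (adjusted p = 0.222).

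Of 18 other subtype markers 4 rose and 4 fell in adult occipital, 6 and 3 in adult frontal with 1 more whose probes disagreed, 3 and 1 in fetal occipital, and 0 and 2 in fetal frontal cortex. The counts without the brightness trend were 0 and 1, 1 and 2, 4 and 1, and 1 and 1. Cck, the peptide of another basket cell class, rose by 1.66 ± 0.33 in adult frontal cortex (adjusted p = 1.31e-04), and Chrna2, a nicotinic subunit of deep somatostatin cells, fell by 1.75 ± 0.27 there (adjusted p = 1.14e-05). Both passed with the brightness trend removed, at 1.16 and -1.44 (adjusted p = 0.00925 and 3.89e-04). Of 13 receptors for somatostatin, neuropeptide Y and VIP 4 rose and 2 fell in each adult group, 0 and 1 in fetal occipital with 1 more whose probes disagreed, and 2 and 1 in fetal frontal cortex. Without the trend the counts were 2 and 0, 3 and 1, 1 and 0, and 0 and 1, with 1 more in each occipital group whose probes disagreed. The somatostatin receptor gene Sstr2 rose by 1.62 ± 0.29 in adult frontal and 1.26 ± 0.29 in fetal frontal cortex (adjusted p = 5.70e-05 and 0.00178), at percentile 94.4, and was at 0.29 and 0.16 with the trend removed. With both trends removed it was at 0.63 in each, of which the adult frontal value passed (adjusted p = 0.0336).

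Markers of other cell types were counted in the same groups, and their part in the members' ratios was not tested. Of all probes 24.1% rose and 24.1% fell in adult occipital, and 26.8% and 29.4% in adult frontal cortex. The shares were 10.5% and 14.2% in fetal occipital and 18.7% and 18.4% in fetal frontal cortex. Of 9 pan-neuronal genes 6 rose and 0 fell in adult occipital, 8 and 0 in adult frontal, 2 and 1 in fetal occipital and 2 and 0 in fetal frontal cortex. The counts were 5 and 1, 5 and 1, 1 and 0, and 4 and 0 for 9 genes of excitatory neurons, and 1 and 0, 2 and 2, 0 and 1, and 1 and 2 for 8 genes of striatal projection neurons. Of 8 astrocyte genes 5 rose and 0 fell in adult occipital, 6 and 0 in adult frontal, 0 and 2 in fetal occipital and 2 and 1 in fetal frontal cortex. For 7 oligodendrocyte genes the counts were 6 and 0, 6 and 0, 1 and 1, and 4 and 1, and for 7 microglial genes 1 and 1, 3 and 1, 1 and 0, and 2 and 1. For 7 endothelial genes they were 1 and 1, 1 and 2, 0 and 1, and 0 and 1, for 3 red blood cell genes 1 and 2, 1 and 2, 0 and 0, and 1 and 2, and for 5 choroid plexus genes 0 and 2, 1 and 2, 1 and 1, and 1 and 2. With the brightness trend removed the astrocyte counts were 4 and 0, 6 and 0, 0 and 1, and 0 and 0, and the pan-neuronal counts 2 and 0, 4 and 0, 1 and 1, and 1 and 0.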

How the data were processed

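Cortical RNA was compared on 20 two-channel Agilent arrays in 4 groups of 5. Per the file headers and labels, the authors deposited 1 log2 ratio per probe and array; no source used here gives the scanner, image software or normalization, and without intensities the number of arrays limits the precision. The members, the gene lists and the comparisons were chosen with earlier results of these data known. Values equal to an array's maximum (6 to 27 per array, none at a member) were set to missing, 1368 exact 0 values were kept, each array was centred on its median (between -0.26 and 0.32), and 8 probes with under 3 values in any group were removed, leaving 22567. All 20 arrays entered 1 limma model (version 3.58.1, R 4.3.3) with a mean for each of the 4 groups and 8 two-sided contrasts, and p-values, adjusted by Benjamini-Hochberg across the probes kept, were called under 0.05; the steps were tested on simulated data. Probes took their symbol from the platform annotation (18218 with 1 symbol, 16 with several, 4341 with none), checked against RefSeq, which changed 0 symbols.

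The brightness score is the mean over arrays of the log2 of the larger number in the smallest whole-number quotient, up to 400, that gives a ratio within 0.001. It is built from the ratios themselves. At 82 spots the value was exactly 0 or the array maximum on at least 6 arrays. Of their 565 other ratios 95.9% could be written with whole numbers up to 20, where 9.79% of ratios drawn at random could. Brightness and position trends were removed by loess with spans of 0.3 and 0.05, position being inferred from probe order (105 rows of 215). The genes named are all members, the 3 nearest genes of each member by Pearson correlation, and up to 3 genes with the smallest p per list and group. Same-numbered arrays of different groups were not paired. Over 30 such pairs the median correlation of deviations was 0.0249, against -0.00898 over 120 pairs of different number. These pairs pool adult with fetal arrays, so the medians cannot show whether 1 animal gave both adult regions. Promoters and motif counts came from RefSeq (GRCm38.p6). Alternatives tried were no centring, scaling, quantile normalization, array weights, other filters, values of exactly 0 left out, the sign of fetal frontal replicate 1 turned, only a comparison's own arrays, a replicate block, averaged probes, a threshold of 0.1, the trends removed, fetal occipital replicates 1 and 1b left out, and each array left out.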

Additional observations from a re-analysis of the deposited data

Results flagged for a closer look

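Among the members and the genes named from the lists, 136 groups of 5 arrays were examined for an array far from the other 4, and 6 had one; chance gives about 1 in 20. Of the 40 groups of members 1 had one: Sst on fetal occipital replicate 3, at -2.53, where the other arrays lay between -0.78 and -0.37. The others were Aldh5a1 on adult occipital replicate 1 (2.23, others 0.70 to 1.06), Glul on adult frontal replicate 1 (0.99, others 1.07 to 1.10), Gabarapl2 on fetal occipital replicate 5 (-2.46, others -0.68 to -0.16), Nkx2-1 on fetal frontal replicate 4 (-4.52, others -1.41 to -0.37) and Reln on fetal occipital replicate 1b (-3.68, others -1.30 to -0.40). Nkx2-1, which sits upstream of Lhx6 in the medial eminence, had a fetal frontal mean of -1.48 ± 0.38 (adjusted p = 0.00328), and without that array it was -0.72 (adjusted p = 0.0629). The mean of Reln in fetal occipital cortex was -1.32 ± 0.37 (adjusted p = 0.0117), and -0.73 without replicate 1b (adjusted p = 0.144). The difference of adult occipital minus fetal occipital passed the limma test for Gad1 (1.84, adjusted p = 0.0190) and Sst (2.18, adjusted p = 0.0132).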

How the results depend on the processing

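Of the called member values, 102 of 110 kept their direction and call when 1 array was left out and 8 lost the call; under the other alternatives 259 of 290 kept both, 23 lost the call and 8 turned in sign. Of the values not called, 6 of 490 and 27 of 890 became called, and 5 turned in sign past the test. The number of members called ranged, with 1 array left out, from 4 to 7 in adult occipital, 5 to 6 in adult frontal, 3 to 5 in fetal occipital and 2 to 4 in fetal frontal cortex, from 0 to 3 for adult minus fetal occipital, and was 0 for the other differences. With the brightness trend removed 1 member was called in adult occipital and 1 in adult frontal cortex, with both trends removed 1 and 2, and with the position trend removed 8 in adult frontal cortex, where 13871 of all 22567 probes were then called. With fetal frontal replicate 1 turned in sign 0 were called in fetal frontal cortex, and 9 of all probes; without that array the 4 fetal frontal calls held. For adult minus fetal occipital 4 were called after quantile normalization, 5 with array weights, 5 at a threshold of 0.1 and 4 with the position trend removed, and for adult minus fetal frontal 2 with the position trend and 1 with both trends removed. With the replicate block 5, 5, 4 and 4 members were called in the adult occipital, adult frontal, fetal occipital and fetal frontal groups and 2 for adult minus fetal occipital, and no member's call changed. In a fit of each group's own arrays Sst in fetal occipital (adjusted p = 0.0969) and Lhx6 in fetal frontal cortex (adjusted p = 0.0510) lost their calls.

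These values turned in sign. With the brightness trend removed the clone probe of Gad2 was at -0.0202 in adult occipital and -1.09 in fetal frontal cortex, Npy at -0.18 and -0.0942 in adult occipital and adult frontal cortex, and Sst at -0.0913 in adult frontal and -1.05 in fetal frontal cortex. With both trends removed the clone probe of Gad2 was at -1.10 in fetal frontal cortex, Npy at -0.34 and -0.24 in adult occipital and adult frontal cortex, and Sst at -0.0942, -0.20 and -1.27 in adult occipital, adult frontal and fetal frontal cortex. With probes averaged Gad2 was at 0.59 in adult frontal cortex, a turn against the RefSeq probe (-0.17) but not the clone probe (1.36). The cause was not tested.

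Over all probes the calls were 10882, 12664, 5576 and 8359 in adult occipital, adult frontal, fetal occipital and fetal frontal cortex, and 2843, 4507, 4344 and 1746 with the brightness trend removed, 3516, 5530, 1706 and 2329 with both. Fetal occipital calls were 1743 in a fit of its own arrays, 3672 with the position trend removed, 3646 without replicates 1 and 1b, 3477 without 1b and 3109 without 5, and fetal frontal calls 5243 without replicate 2. For adult minus fetal occipital the 812 calls ranged from 1 (without adult occipital replicate 3) to 3487 (array weights), and quantile normalization moved the share of higher calls to 49.8%, against 69.8%; for adult minus fetal frontal the 6 calls from 1 to 156, and for fetal occipital minus fetal frontal the 5 calls from 0 to 361. Signal over background was not measured, so which dim spots carry signal is unknown.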
